A study of Mus musculus with 4 samples.

Results

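A set of 9 genes of the S100 and annexin families was followed through single-cell libraries of mouse liver leukocytes: S100a4, S100a6, S100a10, S100a11 and S100a13, and Anxa1, Anxa2, Anxa5 and Anxa6. They were chosen by symbol, all 9 were found among the 32285 features of each matrix, and the rule of choice uses no measured value. S100 proteins are small calcium sensors that bind partner proteins when calcium rises, and annexins are larger proteins that bind acidic membrane lipids in the presence of calcium. The families meet physically: S100a10 (p11) pairs with Anxa2 at the inner face of the plasma membrane and S100a11 can pair with Anxa1. In leukocytes these genes are known for motility, membrane repair, the clearance of dying cells and the move of T cells out of the naive state.

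The 4 libraries came from mice of the genotype IL-22sgBFP, in which a blue fluorescent protein reports interleukin-22. Livers were digested, and CD45+ cells, the pan-leukocyte gate, were sorted by that reporter. The groups were the IL-22-positive and the IL-22-negative fraction 12 h after MC38 cancer cells were injected into the spleen in PBS, and the same fractions before injection, here called 0 h. Each group is 1 library, the number of mice behind a library is not given, and a PBS-only group was not analysed here. No difference below therefore has a replicate check or a p-value, and every interval covers counting error at 95% and nothing else.

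After filtering, 1345 cells were kept from the IL-22-positive and 9492 from the IL-22-negative fraction at 12 h, and 283 and 7928 from the same fractions at 0 h. Their median depths were 3719, 2153, 3352 and 1794 UMIs (unique molecular identifiers, each marking a captured transcript) in that order. Monocyte-like cells were the largest class of the IL-22-positive libraries, with 1042 cells (77.5%) at 12 h and 132 (46.6%) at 0 h. The IL-22-negative libraries were mostly lymphocytes, with 3370 T-cell-like cells at 12 h and 2413 at 0 h. Ptprc, which encodes CD45, had a UMI in between 61.6% and 83.6% of the cells of a library. Il22 itself was nearly absent from all 4: it had 0 UMIs in the 12 h IL-22-positive library, 1 in the 12 h IL-22-negative library, 6 in the 0 h IL-22-positive library and 16 in the 0 h IL-22-negative library. In that order these UMIs lay in 0 of 1345, 1 of 9492, 3 of 283 and 7 of 7928 kept cells. At 0 h the share of cells with Il22 was thus larger in the IL-22-positive library. The names of the sort fractions are therefore used as labels of the libraries. Any 2 libraries shared at most 101 cell barcodes.

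Classes were built without any S100 or annexin gene, so none of the 9 genes helped to define them. Genes of other families named below, such as Ccr7, were not left out. The ending "-like" marks a class named from marker genes. A level is given as CPM, the gene's UMIs per 1000000 UMIs of all cells of a class in a library. It is a share of the class's transcripts and not a number of molecules per cell. Ratios of levels were read only where at least 10 UMIs were predicted in the smaller sum, and such a gene is called measured. A ratio of at least 1.5 or at most 0.667 is called past 1.5-fold.

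S100a4, S100a6, S100a10, S100a11 and S100a13 lie on chromosome 3 of GRCm38 within S100 clusters, by GENCODE vM21. S100a13 (chr3:90514435-90524581), S100a4 (chr3:90603771-90606045) and S100a6 (chr3:90612882-90624181) lie in that order on the plus strand. The end of S100a4 and the start of S100a6 are 6836 bases apart, with S100a5 between them. S100a11 (chr3:93520488-93526287) and S100a10 (chr3:93555080-93564643), also on the plus strand, form another pair 28792 bases apart. The annexin genes are scattered: Anxa5 on the minus strand at chr3:36448923-36475894, Anxa1 on the minus strand at chr19:20373428-20390944, Anxa2 on the plus strand at chr9:69453620-69491795 and Anxa6 on the minus strand at chr11:54979108-55033445.

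RefSeq (GRCm38.p6) gave the 250 bases before the transcription start for 7 of the 9 genes, all except S100a10 and Anxa6. The windows of 4 genes are printed, all on the plus strand: S100a4 and S100a6, which lie in the same cluster and whose levels part in neutrophil-like cells, and S100a11 and Anxa2, the genes that differed most between libraries in monocyte-like cells. Their coordinates are chr3:90603520-90603769 for S100a4, chr3:90612644-90612893 for S100a6, chr3:93520246-93520495 for S100a11 and chr9:69453433-69453682 for Anxa2. Capitals mark exact matches to TGANTCA (the AP-1 motif), GGGCGG (the GC box bound by SP and KLF factors) or TATAAA (the TATA box), searched on both strands, and no matches overlapped.
S100a4: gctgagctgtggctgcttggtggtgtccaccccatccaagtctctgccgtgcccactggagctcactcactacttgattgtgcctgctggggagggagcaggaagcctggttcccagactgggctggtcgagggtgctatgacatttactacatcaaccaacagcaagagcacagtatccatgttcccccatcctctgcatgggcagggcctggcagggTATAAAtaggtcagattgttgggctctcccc
S100a6: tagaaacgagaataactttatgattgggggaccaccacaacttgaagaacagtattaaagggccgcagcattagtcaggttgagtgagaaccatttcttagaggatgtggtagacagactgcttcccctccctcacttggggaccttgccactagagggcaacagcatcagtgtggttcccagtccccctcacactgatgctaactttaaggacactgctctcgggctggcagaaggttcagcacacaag
S100a11: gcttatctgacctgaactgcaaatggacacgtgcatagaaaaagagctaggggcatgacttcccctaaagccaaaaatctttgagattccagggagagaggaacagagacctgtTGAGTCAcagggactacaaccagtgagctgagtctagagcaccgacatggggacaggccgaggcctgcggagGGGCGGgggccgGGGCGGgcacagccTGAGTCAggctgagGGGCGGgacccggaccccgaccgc
Anxa2: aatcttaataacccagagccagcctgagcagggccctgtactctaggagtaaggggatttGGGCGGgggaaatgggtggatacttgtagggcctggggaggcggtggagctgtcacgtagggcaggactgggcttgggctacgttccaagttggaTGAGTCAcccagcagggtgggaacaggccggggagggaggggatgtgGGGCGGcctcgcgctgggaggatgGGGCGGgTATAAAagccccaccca
The S100a11 window holds TGAGTCA at -136 and -38 from the start and GGGCGG at -64, -52 and -24. The Anxa2 window holds TGAGTCA at -95, GGGCGG at -190, -48 and -24, and TATAAA at -17. In the S100a4 window only TATAAA at -31 was found, and in the S100a6 window none of the 3 motifs. Among the same windows of 27025 genes, 7.82% hold TGANTCA, 35.4% hold GGGCGG and 14.3% hold TATAAA. A match is a run of letters and not a site shown to be bound.

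In the 12 h IL-22-negative library, 6 of the 9 genes were highest in monocyte-like or neutrophil-like cells: S100a4, S100a6, S100a11, Anxa1, Anxa2 and Anxa5. B-cell-like, plasma-cell-like and plasmacytoid dendritic (pDC-like) cells had less of each of them than monocyte-like cells. S100a6, the calcyclin gene, had 9968 CPM in neutrophil-like cells, 4934 CPM in monocyte-like cells, 2679 CPM in conventional dendritic (cDC-like) cells, 1991 CPM in NK-or-ILC1-like cells, 1028 CPM in T-cell-like cells, 776 CPM in pDC-like cells, 570 CPM in B-cell-like cells and 137 CPM in plasma-cell-like cells. The counting intervals of neighbours in this order did not overlap. S100a11 followed the same order of classes, at 5784 CPM in neutrophil-like, 2223 CPM in monocyte-like and 1094 CPM in cDC-like cells against 217 CPM in plasma-cell-like cells, again with no overlap between neighbours.

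S100a4, linked to cell motility through its binding of non-muscle myosin, had the highest level in monocyte-like cells, at 1544 CPM, followed by cDC-like cells at 917 CPM. NK-or-ILC1-like and T-cell-like cells had 288 and 277 CPM, with overlapping intervals. It was nearly absent from B-cell-like (36.4 CPM), plasma-cell-like (29.1 CPM), neutrophil-like (18.7 CPM) and pDC-like cells (13.7 CPM), whose neighbouring intervals overlapped. Neutrophil-like cells were thus the class with the most S100a6 and among those with the least S100a4: their 50 cells held 1065 UMIs of S100a6 and 2 of S100a4. A UMI of S100a4 was found in 92.7% of monocyte-like cells and 3.87% of pDC-like cells, or 73.0% and 2.51% after each cell was thinned to 1000 UMIs.

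S100a10 and S100a13 had another order. S100a10, the Anxa2 partner, was highest in NK-or-ILC1-like cells at 1251 CPM, with T-cell-like (1103 CPM) and monocyte-like cells (1081 CPM) next and indistinguishable from each other. It was lowest in neutrophil-like (234 CPM) and pDC-like cells (188 CPM), which also overlapped. The NK-or-ILC1-like class held T-cell transcripts as well: 10 T-cell markers summed to 2285 CPM in it, beside 6450 CPM of 10 NK markers, and 241 of its 1647 cells fell in the Klra5 and Cd160 T-cell-like sub-cluster when clustered again. S100a10 had 1715 CPM in NK-like, 1065 CPM in ILC1-like and 878 CPM in Klra5 and Cd160 T-cell-like cells. S100a13, which takes part in the unconventional export of interleukin-1 alpha, had the narrowest span, between 101 CPM in B-cell-like and 319 CPM in NK-or-ILC1-like cells.

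Among the annexins, Anxa1, a mediator that restrains inflammation through formyl peptide receptors, had the widest span. It had 992 CPM in neutrophil-like, 325 CPM in monocyte-like, 128 CPM in cDC-like and 40.2 CPM in NK-or-ILC1-like cells. T-cell-like (11.3 CPM) and B-cell-like cells (9.54 CPM) overlapped, and 5 and 2 UMIs were found in all pDC-like and plasma-cell-like cells. Anxa2, which organises membrane-bound actin and plasminogen activation, had 2125 CPM in neutrophil-like, 1755 CPM in monocyte-like, 1190 CPM in cDC-like and 960 CPM in NK-or-ILC1-like cells, against 193 CPM in T-cell-like and 74.3 CPM in B-cell-like cells. Anxa5, which binds exposed phosphatidylserine, was a gene of monocyte-like (300.1 CPM) and cDC-like cells (270 CPM, overlapping), with the other 6 classes between 35.8 and 93.6 CPM.

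Anxa6, the annexin with a doubled core of repeats, ran the other way. Its highest levels were in NK-or-ILC1-like (148 CPM) and T-cell-like cells (113 CPM), above cDC-like (80.5 CPM) and monocyte-like cells (66.8 CPM), and its lowest were in pDC-like (41.1 CPM) and plasma-cell-like cells (34.5 CPM).

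At 0 h the IL-22-negative library gave the same highest class for S100a4, S100a13, Anxa5 and Anxa6. S100a6 and Anxa2 were highest in monocyte-like cells. S100a11 was highest in cDC-like cells, at 1346 CPM against 905 CPM in monocyte-like cells, and the intervals did not overlap. The order of these classes was the reverse at 12 h. Basophil-like cells, with 39 cells at 0 h and too few at 12 h, led S100a10 (1488 CPM) and Anxa1 (271 CPM), but their intervals overlapped those of the next class, NK-or-ILC1-like cells for S100a10 (1255 CPM) and monocyte-like cells for Anxa1 (193 CPM). No class of neutrophil-like cells could be formed at 0 h, where only 10 such cells were kept against 50 at 12 h. In the 12 h IL-22-positive library the Arg1 and Pf4 cluster (36 cells) had the highest S100a10 (2051 CPM), Anxa2 (1339 CPM) and Anxa5 (475 CPM). Its S100a6 (5311 CPM), Anxa1 (216 CPM) and Anxa6 (108 CPM) were highest too, with intervals overlapping the next class. That library held too few NK-or-ILC1-like (17) and neutrophil-like cells (22) to form a class.

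**Figure D1:**
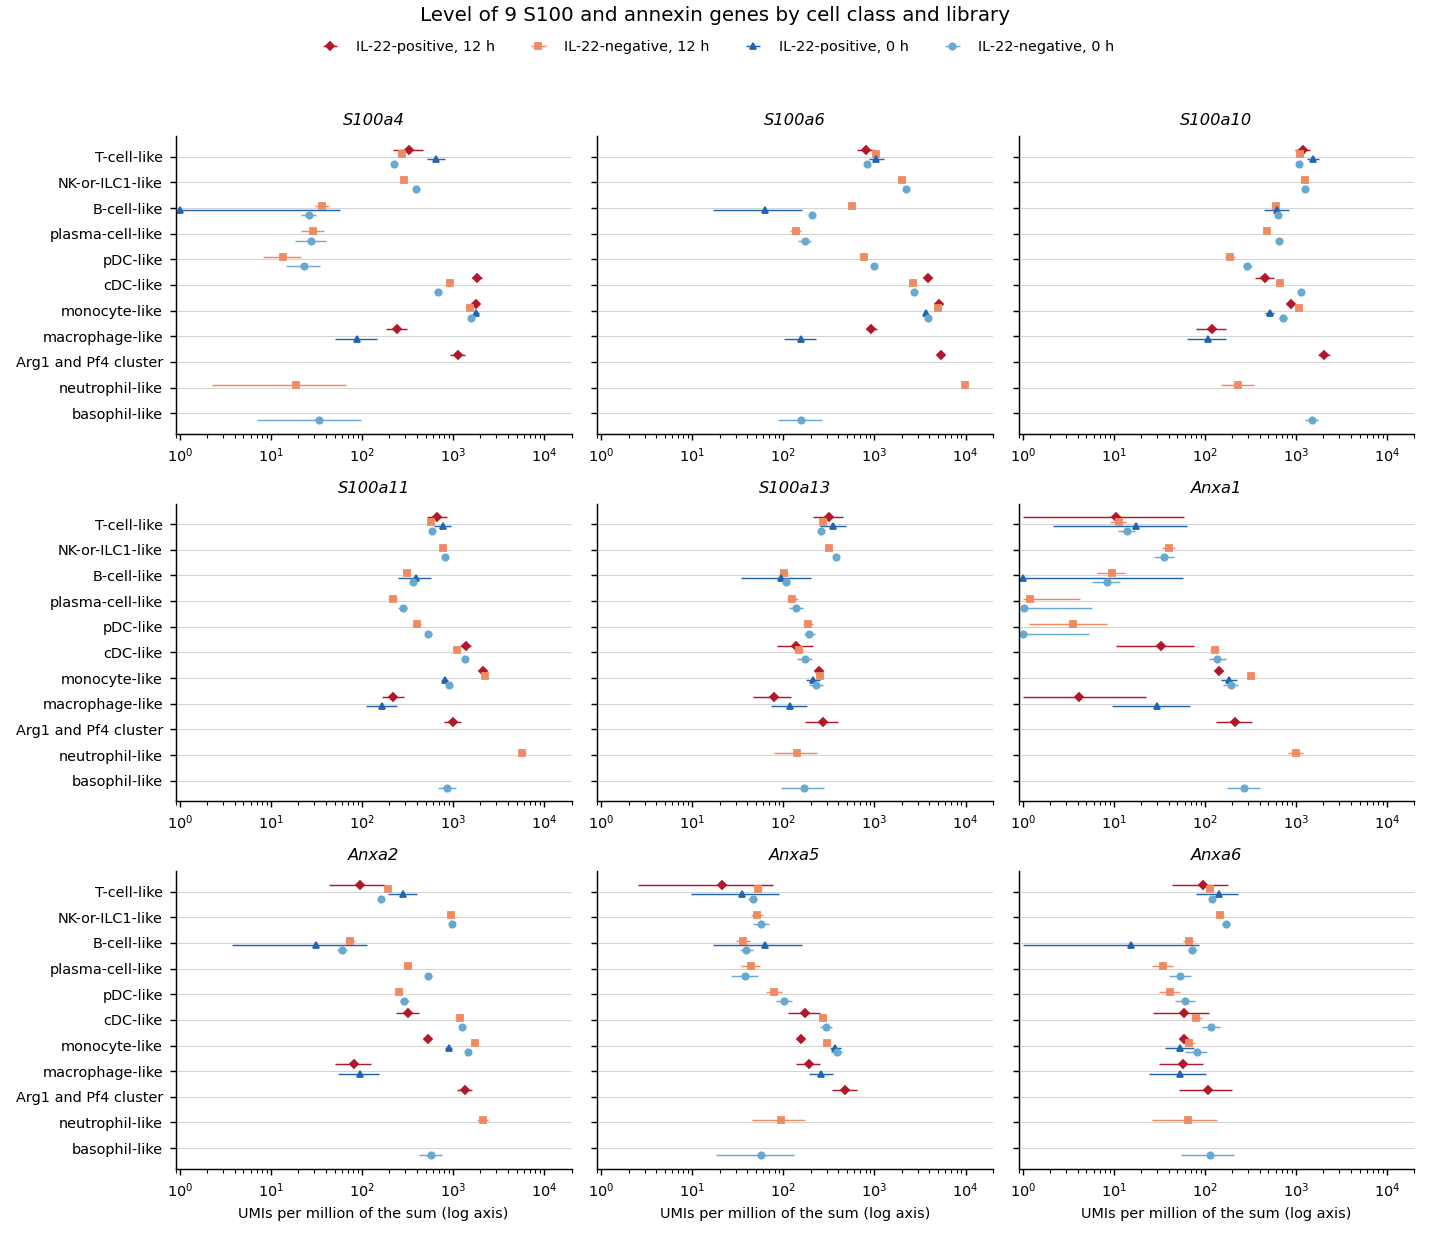
Level of each of the 9 genes (CPM, log axis) in each class with at least 30 cells in a library, 1 panel per gene and 1 colour per library; bars are exact Poisson intervals at 95% for counting error, and values under 1 CPM are drawn at 1 CPM. S100a6 reaches 9968 CPM in neutrophil-like cells, where S100a4 is at 18.7 CPM, and Anxa2 in monocyte-like cells is lowest in the 12 h IL-22-positive library, at 531 CPM.

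Within the T-cell-like class, S100a4, S100a6, S100a10 and S100a11 were lowest in the naive sub-clusters. In the 12 h IL-22-negative library, S100a4 had 13.5 CPM in naive CD4 and 8.96 CPM in naive CD8 T-cell-like cells. It had 491 CPM in Gzmk CD8 cells, 903 CPM in the CD4 and regulatory sub-cluster and 1389 CPM in type 17 T-cell-like cells, the sub-cluster with Ccr6 and Cd163l1 among its leading genes. S100a6 showed the same split, at 43.3 and 67.2 CPM in naive CD4 and CD8 cells against 3393 CPM in type 17 cells. S100a10 was present in every T-cell sub-cluster and still differed, between 384 CPM in naive CD4 and 2571 CPM in type 17 cells. S100a11 ran between 193 CPM in naive CD4 and 1363 CPM in type 17 cells. The PLZF T-cell-like sub-cluster, led by Zbtb16 and Cxcr6 and the most numerous with 1314 cells, was low for a non-naive one, with 75.8 CPM of S100a4 and 616 CPM of S100a6.

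Anxa2 ordered the lymphocytes differently. It was low in naive CD8 (22.4 CPM) and naive CD4 cells (25.7 CPM), reached only 303 CPM in type 17 cells, and was highest in NK-like cells at 1671 CPM, against 519 CPM in ILC1-like cells. S100a4 showed the opposite contrast between these sub-clusters, with 101 CPM in NK-like and 432 CPM in ILC1-like cells. Anxa1 was also higher in NK-like (83.7 CPM) than in ILC1-like cells (21.5 CPM), and S100a6 was close in both (1839 and 2036 CPM). The ILC1-like sub-cluster held T-cell transcripts as well. Over all 4 libraries Cd3d, Cd3e and Cd3g summed to 1356 CPM in it and 201 CPM in NK-like cells, and their part was not tested. Anxa6 ranged between 60.9 CPM in naive CD4 and 181 CPM in NK-like cells.

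Among the dendritic cells, S100a4 parted the 2 conventional subsets, at 109 CPM in cDC1-like and 1388 CPM in cDC2-like cells. S100a6 (975 and 3278 CPM) and S100a10 (289 and 729 CPM) were lower in cDC1-like cells as well, whereas Anxa2 (1245 and 1406 CPM) and Anxa1 (151 and 163 CPM) were similar in both. In the monocyte-like cells, the sub-cluster led by Lrg1 and Chil3 had the highest S100a11 (3058 CPM), S100a6 (6256 CPM) and Anxa1 (457 CPM). Non-classical monocyte-like cells, marked by Nr4a1 and Treml4, had 855 CPM of S100a11, 2525 CPM of S100a6 and 51.8 CPM of Anxa1. Macrophage-like cells in the sub-clustering could be read only in the IL-22-positive library, where 55 cells had 85.4 CPM of S100a6, 38.8 CPM of S100a4 and 23.3 CPM of Anxa2, but 140 CPM of Anxa5.

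The first comparison over time was between 12 h and 0 h in the IL-22-negative fraction, where 7 classes had enough cells. Of 61 measured pairs of gene and class, 3 were at least 1.5-fold higher and 5 at least 1.5-fold lower at 12 h. Together these were 13.1% of the pairs, beside between 9.84% and 23.7% of all measured features, depending on the class. T-cell-like cells had none of the 9 genes past 1.5-fold, with ratios between 0.808 and 1.24, where 9.84% of all measured features were. NK-or-ILC1-like cells likewise had none, with ratios between 0.742 and 1.13 and a background of 11.3%.

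In monocyte-like cells 2 of the 9 genes were past 1.5-fold higher and none lower, beside 12.2% of all measured features higher and 21.7% past 1.5-fold either way. S100a11 had 2223 CPM at 12 h against 905 CPM at 0 h, a ratio of 2.46 (2.25 to 2.68), and 2.49% of features had a ratio as high. Anxa1 had 325 CPM at 12 h against 193 CPM at 0 h, a ratio of 1.68 (1.39 to 2.05), or 1.49 with cells placed by marker UMIs. S100a10 stood at the edge, at 1081 CPM at 12 h against 723 CPM at 0 h (ratio 1.49), while S100a4 was level at 1544 and 1586 CPM. Anxa5 was the lowest of the 9 in ratio, at 300.1 CPM at 12 h and 384 CPM at 0 h (0.781).

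The monocyte-like class was not made of the same cells at both times. The Lrg1 and Chil3 sub-cluster supplied 206 of its 560 cells at 12 h, against 1 of 141 at 0 h, and the Gstm1 and Lyz2 sub-cluster was 74 cells at 12 h and 91 at 0 h. Within the Gstm1 and Lyz2 sub-cluster S100a11 was still higher, at 1940 CPM at 12 h against 1012 CPM at 0 h (ratio 1.92, 1.70 to 2.17). Anxa1 there had 418 CPM at 12 h against 219 CPM at 0 h (1.91, 1.46 to 2.50), and S100a10 had 1153 against 756 CPM (1.52). Those 3 genes were past 1.5-fold higher and Anxa6 lower (0.660, on 20 and 35 UMIs), with 23.8% of features past 1.5-fold. Markers of other cell types moved with this result. The summed level of 10 neutrophil markers in monocyte-like cells was 991 CPM at 12 h and 43.8 CPM at 0 h, with 7 and 3 of the markers detected. S100a8 there had 2919 CPM at 12 h and 11.4 CPM at 0 h. The summed level of 3 erythroid markers was 2830 CPM at 12 h and 1.62 CPM at 0 h, with 3 and 1 of them detected, and that of 10 macrophage markers was 438 and 50.3 CPM. The part of these transcripts in the monocyte-like values was not tested.

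In B-cell-like cells 1 of the 9 genes was past 1.5-fold higher, beside 3.07% of features higher and 13.4% past 1.5-fold either way. S100a6 had 570 CPM at 12 h and 207 CPM at 0 h, a ratio of 2.75 (2.53 to 2.99), and 0.198% of features had a ratio as high. With a limit of 5 UMIs per cell, chosen after the values were seen, 65 of 1862 cells at 12 h (3.49%, exact binomial interval 2.70 to 4.43) and 26 of 2044 at 0 h (1.27%, 0.833 to 1.86) reached it. These cells held 85.3% of the gene's UMIs at 12 h and 53.6% at 0 h, and the highest cell had 152 UMIs at 12 h and 46 at 0 h. Since the limit is set on the gene itself, this is a description of where its UMIs lay. The share of B-cell-like cells with any S100a6 UMI was 15.2% at 12 h and 15.5% at 0 h (10.8% and 9.13% after thinning).

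The cells at or above that limit had 9334 CPM of the summed B-cell markers at 12 h and 10146 CPM at 0 h, against 12364 and 12107 CPM in the cells below it. Plasma-cell markers summed to 764 CPM at 12 h and 1008 CPM at 0 h in them, against 587 and 661 CPM below it. T-cell markers were at 110 CPM at 12 h and 482 CPM at 0 h, against 150 and 275 CPM below it, and monocyte markers at 72.3 and 241 CPM, against 171 and 165 CPM. The part of these transcripts was not tested. The cells at or above the limit were deeper, with medians of 4282 and 4500.5 UMIs against 1570 and 1708 UMIs below the limit. S100a4 was also higher in them than in the remaining B-cell-like cells, at 261 CPM at 12 h and 330.2 CPM at 0 h against 13.7 and 16.9 CPM. Anxa2 had 374 CPM at 12 h and 366 CPM at 0 h in them, against 43.9 and 51.8 CPM in the rest.

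**Figure D2:**
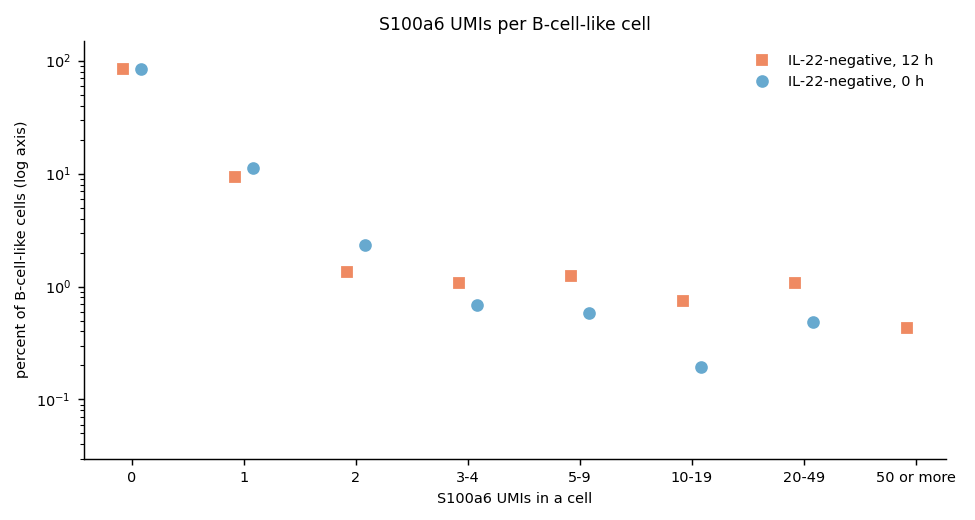
Percent of B-cell-like cells of the IL-22-negative libraries by their number of S100a6 UMIs, 12 h beside 0 h. Cells with at least 5 UMIs make up 3.49% at 12 h and 1.27% at 0 h, and no cell of 0 h passes 46 UMIs.

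Lower levels at 12 h were found in dendritic and plasma cells. S100a10 had 676 CPM at 12 h against 1149 CPM at 0 h in cDC-like cells, a ratio of 0.588 (0.538 to 0.642). It was the only one of the 9 past 1.5-fold there, with 9.57% of features lower and 17.8% past 1.5-fold either way. The make-up of the class differed between the times: an unnamed sub-cluster with pDC markers was 97 of its 435 cells at 12 h and 51 of 116 at 0 h, and cDC2-like cells were 218 at 12 h and 30 at 0 h. Summed pDC markers were 1457 CPM at 12 h and 2576 CPM at 0 h in it. The S100a10 ratio was 0.643 with sub-clusters weighted alike, 0.685, no longer past 1.5-fold, with cells placed by marker UMIs, and 0.713 within cDC2-like cells.

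In pDC-like cells S100a10 had 188 CPM at 12 h and 294 CPM at 0 h (0.640, 0.540 to 0.757), and S100a4 had 13.7 and 23.1 CPM on 19 and 24 UMIs (0.594, 0.308 to 1.13), beside 9.26% of features lower and 14.7% either way. When doublets were kept the S100a10 ratio was 0.867 and that of S100a4 turned to 1.11, and with cells placed by marker UMIs they were 0.750 and 1.17, so neither was past 1.5-fold under those settings. Plasma-cell-like cells had 318 CPM of Anxa2 at 12 h against 533 CPM at 0 h (0.597, 0.528 to 0.675) and 34.5 against 53.5 CPM of Anxa6 (0.644, 0.435 to 0.955), with 11.4% of features lower and 23.7% either way.

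Below the class level, S100a4 was the gene past 1.5-fold most often between the times in lymphocyte sub-clusters, in 5 of them. PLZF T-cell-like cells had 75.8 CPM at 12 h against 143 CPM at 0 h (0.529, 0.441 to 0.635), where 13.1% of features were past 1.5-fold. NK-like cells had 101 against 165 CPM (0.611, background 14.4%), and Klra5 and Cd160 T-cell-like cells had 318 against 491 CPM (0.649, background 15.5%). Gzmm and Ly6c2 CD8 cells were higher at 12 h, with 109 CPM against 62.9 CPM at 0 h (1.74, 1.34 to 2.27, background 14.2%). The naive CD8 value (0.627, background 16.7%) rests on 8 UMIs at 12 h and 13 at 0 h. Type 17 cells had 2 of 8 measured genes past 1.5-fold higher (background 16.4%): Anxa5, at 106 CPM at 12 h against 49.4 CPM at 0 h (2.14, 0.959 to 5.63, on 45 and 7 UMIs), and Anxa2, at 303 against 169 CPM (1.79, on 129 and 24 UMIs). Anxa2 in naive CD4 cells had 25.7 CPM at 12 h against 46.7 CPM at 0 h (0.551, on 19 and 30 UMIs, background 17.6%). Anxa5 in Gzmk CD8 cells had 76.1 CPM at 12 h against 34.3 CPM at 0 h (2.22, on 38 and 13 UMIs, background 17.4%). None of the 9 genes was past 1.5-fold in the CD4 and regulatory (background 19.3%), ILC1-like (13.8%) or cDC2-like sub-cluster (19.3%).

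In the IL-22-positive fraction 3 classes had enough cells at both times. Of 23 measured pairs, 4 were past 1.5-fold higher and 5 lower at 12 h. Together these were 39.1% of the pairs, beside between 28.8% and 34.5% of all measured features, depending on the class. Monocyte-like cells had 28.8% of all features past 1.5-fold and 4 of the 9 genes. S100a11 had 2128 CPM at 12 h against 807 CPM at 0 h, a ratio of 2.64 (2.40 to 2.90), close to that in the IL-22-negative fraction. S100a10 had 881 CPM at 12 h against 515 CPM at 0 h (1.71, 1.52 to 1.94). Anxa5 had 154 CPM at 12 h against 373 CPM at 0 h (0.413, 0.353 to 0.486), and Anxa2 had 531 against 900.4 CPM (0.589, 0.535 to 0.651), or 0.674 with cells placed by marker UMIs. Other features low in the 12 h IL-22-positive library are set beside Anxa2 in monocyte-like and T-cell-like cells further below.

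This class also differed in make-up between the times. Non-classical monocyte-like cells supplied 208 of its 1042 cells at 12 h, against 81 of 132 at 0 h. Within them alone S100a11 had 1040 CPM at 12 h against 565 CPM at 0 h (1.84, 1.53 to 2.22) and Anxa5 had 201 against 388 CPM (0.519, 0.392 to 0.688), while S100a10 (1.36) and Anxa2 (0.812) were not past 1.5-fold. With sub-clusters weighted alike, which covered 48.1% of the UMIs of 12 h, the S100a10 ratio was 1.39. The background in these cells was 26.4%. Summed neutrophil markers in the monocyte-like cells of this fraction were 717 CPM at 12 h and 71.7 CPM at 0 h, summed macrophage markers were 521 and 183 CPM, and their part was not tested.

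Macrophage-like cells of the IL-22-positive fraction numbered 88 at 12 h and 42 at 0 h. S100a6 had 928 CPM at 12 h against 155 CPM at 0 h, a ratio of 5.99 (3.98 to 9.37), S100a4 had 242 against 89.3 CPM (2.71, 1.52 to 5.15) and S100a13 had 78.0 against 119 CPM (0.655, on 19 and 20 UMIs). These were 3 of 7 measured genes, where 34.5% of features were past 1.5-fold. The class was a mixture when clustered again: 29 of its cells at 12 h and 6 at 0 h fell in the Tmem37 and C1qb monocyte-like sub-cluster. In the 55 cells of 12 h that stayed macrophage-like, S100a6 had 85.4 CPM. The S100a13 ratio kept its side of the limit in 5 of 11 other settings. With sub-clusters weighted alike, which covered 94.2% of the UMIs of 12 h, the ratio of S100a6 was 5.93 (972 against 164 CPM). That of S100a4 was then 4.70 and that of S100a13 0.888. With finer classes the ratio of S100a6 was 1.80 and that of S100a4 turned to 0.400.

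T-cell-like cells of this fraction numbered 38 at 12 h and 36 at 0 h. S100a4 had 326 CPM at 12 h against 654 CPM at 0 h (0.499, 0.317 to 0.768) and Anxa2 had 94.7 against 283 CPM (0.335, on 9 and 32 UMIs), beside 24.1% of features lower and 32.5% either way. Type 17 cells supplied 1 of the 38 at 12 h, against 8 of the 36 at 0 h. With sub-clusters weighted alike, which covered 21.6% of the UMIs of 12 h, the S100a4 ratio turned to 2.75 and that of Anxa2 was 0.849.

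**Figure D3:**
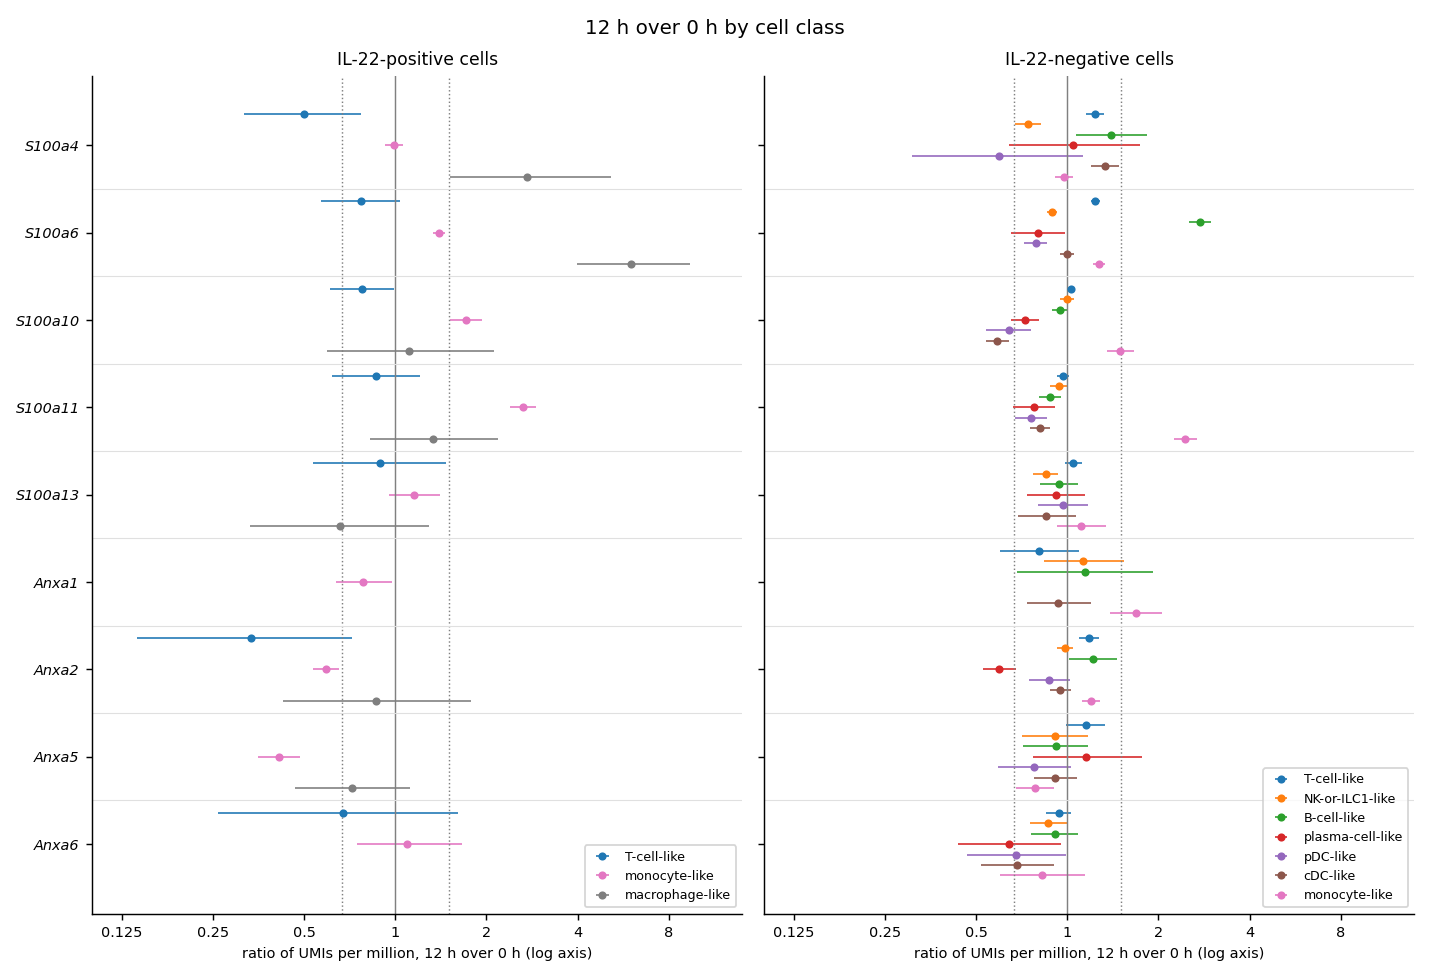
Ratio of levels at 12 h over 0 h (log axis) for each measured gene and class, IL-22-positive libraries on the left and IL-22-negative on the right; bars are exact conditional intervals at 95% for counting error, and dotted lines mark 1.5-fold either way. S100a11 in monocyte-like cells lies at 2.64 and 2.46 in the 2 panels.

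The sort fractions were compared within classes, in the same 4 libraries that gave the comparisons over time. Of 997 features measured in monocyte-like, cDC-like and T-cell-like cells at 12 h, 95 (9.53%) were at least 1.5-fold lower in the IL-22-positive than in the IL-22-negative library in all 3 classes, and 8 were higher in all 3. Anxa2 was among the 95, and it was the only one of the 7 members measured in all 3. With sub-clusters weighted alike its ratio in T-cell-like cells was 0.681, which is not past 1.5-fold. The other 94 features include Tagln2, an actin-binding gene, at 258 CPM in IL-22-positive and 1151 CPM in IL-22-negative monocyte-like cells (0.224). They also include Rpl3, Eef1g, Gapdh, Psma1 and mt-Nd1. Their median ratio was 0.440 in monocyte-like, 0.342 in cDC-like and 0.316 in T-cell-like cells, beside 0.302, 0.271 and 0.491 for Anxa2. Low ratios in this comparison follow from how the features were chosen. Over time in the IL-22-positive fraction, these 94 features had a median ratio of 0.560 in monocyte-like and 0.342 in T-cell-like cells. Anxa2 had 0.589 and 0.335 there. In macrophage-like cells of that fraction the median over time was 0.602 and Anxa2 had 0.862, and in non-classical monocyte-like cells 0.779 and 0.812. Between the sort fractions at 12 h, non-classical cells had a median of 0.663, and Anxa2 had 1.09. Between them at 0 h the median was 0.983 in T-cell-like and 0.790 in monocyte-like cells, and Anxa2 had 1.73 and 0.614. In monocyte-like cells of the IL-22-negative fraction the median over time was 1.06 and Anxa2 had 1.20. The set was chosen on the 12 h IL-22-positive library, so this is a description and was not tested. With 1 library per group, the sort fraction and this single library of 12 h cannot be told apart.

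At 12 h, 25 pairs were measured, of which 1 was past 1.5-fold higher and 7 lower in the IL-22-positive fraction. Together these were 32% of the pairs. Of all measured features, 25.2% were past 1.5-fold in monocyte-like, 35.6% in cDC-like and 31.1% in T-cell-like cells. The 7 lower ones were Anxa1, Anxa2 or Anxa5. In monocyte-like cells Anxa2 had 531 CPM in the IL-22-positive and 1755 CPM in the IL-22-negative library, a ratio of 0.302 (0.288 to 0.318), and 1.66% of features had a ratio as low. Anxa1 had 145 CPM in IL-22-positive and 325 CPM in IL-22-negative cells (0.446, 0.402 to 0.495), and Anxa5 had 154 and 300.1 CPM (0.514, 0.463 to 0.570). These were 3 of the 9 genes, with 15.1% of features lower and 25.2% past 1.5-fold either way. The 5 S100 genes had ratios between 0.815 and 1.16 in the same cells, and S100a10, the partner of Anxa2, was at 0.815. Anxa6 was at 0.882. Markers of other cell types differed between these cells too. Erythroid markers summed to 1.88 CPM in IL-22-positive and 2830 CPM in IL-22-negative cells, T-cell markers to 0.706 and 138 CPM, B-cell markers to 34.9 and 251 CPM, and neutrophil markers to 717 and 991 CPM. Their part was not tested.

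Among monocyte-like and related myeloid sub-clusters, Anxa1, Anxa2 and Anxa5 were the 3 of 9 genes past 1.5-fold, all lower, in the Lrg1 and Chil3, the Tmem37 and C1qb, and the Arg1 and Pf4 sub-cluster. In the interferon-led sub-cluster Anxa1 (0.631) and Anxa2 were lower and Anxa6 higher, at 80.5 CPM in IL-22-positive and 48.3 CPM in IL-22-negative cells (1.67, 0.912 to 3.25, on 54 and 14 UMIs). Anxa2 had a ratio of 0.267 in the Lrg1 and Chil3 sub-cluster (571 CPM in IL-22-positive and 2144 CPM in IL-22-negative cells, background 26.4%). It was 0.339 in the Tmem37 and C1qb sub-cluster (316 and 931 CPM, background 28.1%), 0.357 in the Arg1 and Pf4 sub-cluster (819 and 2296 CPM, background 29.7%) and 0.378 in the interferon-led sub-cluster (581 and 1540 CPM, background 23.4%). In non-classical monocyte-like cells the Anxa2 ratio was 1.09, and the difference between sub-clusters was not tested. There 3 of 8 measured genes were past 1.5-fold, all higher, and the other 5 had ratios above 1. Anxa1 had 190 CPM in IL-22-positive and 51.8 CPM in IL-22-negative cells (3.67, 1.39 to 13.7, on 99 and 4 UMIs), S100a6 had 5008 CPM in IL-22-positive and 2525 CPM in IL-22-negative cells (1.98, 1.71 to 2.31) and S100a4 had 1832 and 1023 CPM (1.79, 1.42 to 2.28), with only 33 cells in the IL-22-negative library and a background of 27%. The neutrophil-linked S100a8 moved with these, at 2033 CPM in IL-22-positive and 220.1 CPM in IL-22-negative non-classical cells, and its part was not tested.

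In cDC-like cells, of which the IL-22-positive library held 35, Anxa2 had 322 CPM in IL-22-positive and 1190 CPM in IL-22-negative cells (0.271, 0.200 to 0.359). Anxa1 had 32.9 and 128 CPM (0.256, on 5 and 317 UMIs) and Anxa5 had 171 and 270 CPM (0.634), while S100a4 was higher in the IL-22-positive cells at 1829 against 917 CPM (1.99, 1.75 to 2.26). The background was 35.6%. T-cell markers summed to 0 CPM in IL-22-positive and 140 CPM in IL-22-negative cDC-like cells, B-cell markers to 39.5 and 224 CPM, and pDC markers to 447 and 1457 CPM, and their part was not tested. With the sub-clusters of these cells weighted alike the S100a4 ratio was 1.51, and the Anxa5 ratio turned to 1.18 when cells were placed by marker UMIs. In T-cell-like cells Anxa2 alone was past 1.5-fold, at 94.7 CPM in IL-22-positive and 193 CPM in IL-22-negative cells (0.491, on 9 UMIs), where 26.8% of features were lower and 31.1% past 1.5-fold either way. It was no longer past 1.5-fold with sub-clusters weighted alike (0.681).

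**Figure D4:**
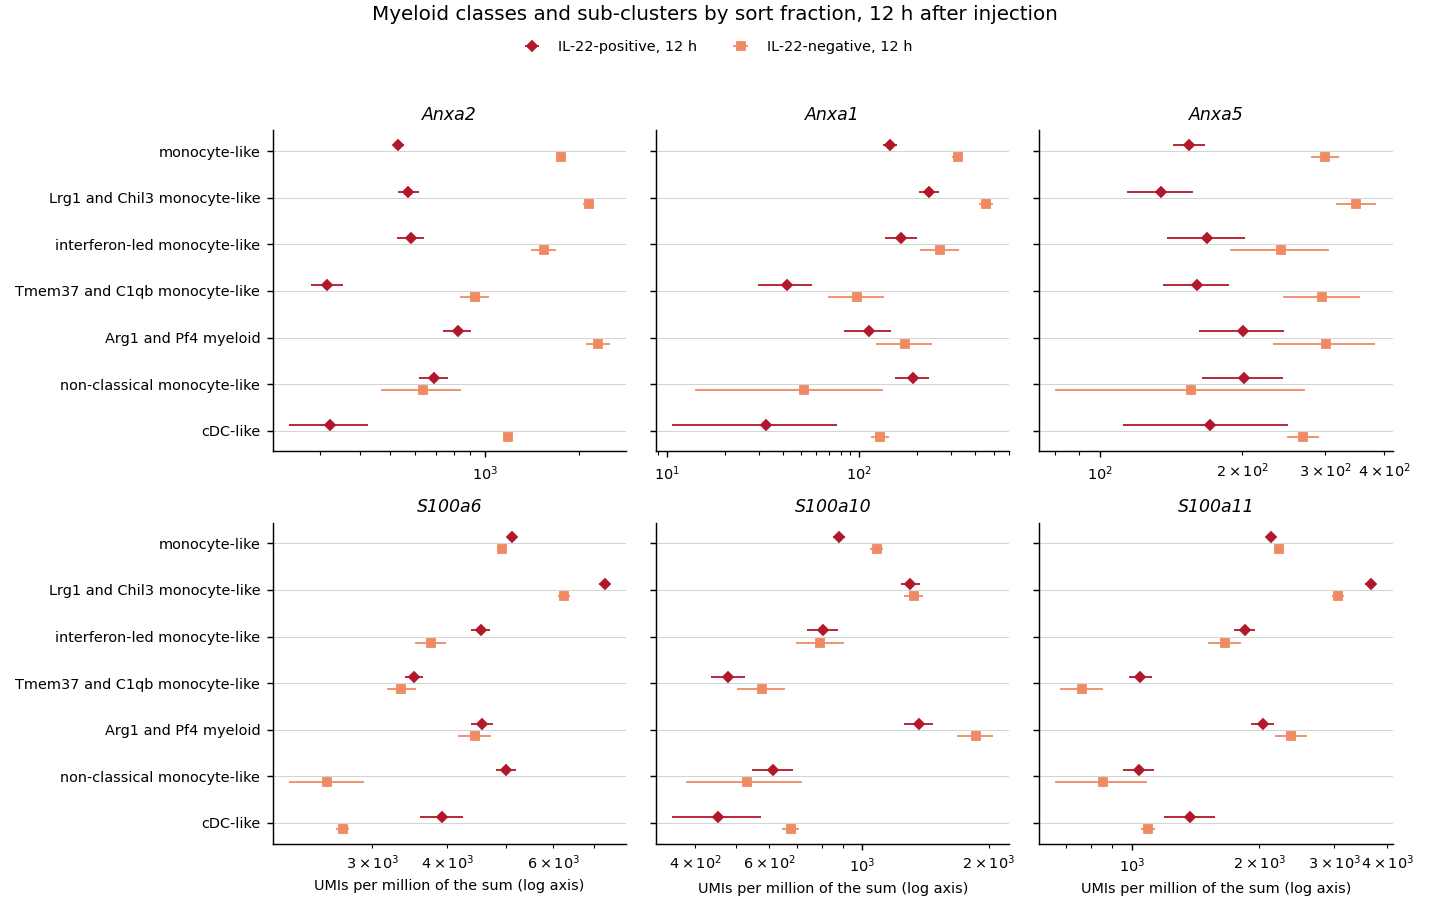
Level (CPM, log axis) of 6 of the genes at 12 h in IL-22-positive beside IL-22-negative monocyte-like cells, 5 of their sub-clusters and cDC-like cells; bars are exact Poisson intervals at 95%. Anxa2 is lower in the IL-22-positive library in each group except the non-classical sub-cluster, where its ratio is 1.09.

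At 0 h, 19 pairs were measured, with 2 past 1.5-fold higher and 3 lower in the IL-22-positive fraction. Together these were 26.3% of the pairs, beside between 18.8% and 32.2% of all measured features, depending on the class. T-cell-like cells had 654 CPM of S100a4 in the IL-22-positive and 224 CPM in the IL-22-negative library, a ratio of 2.92 (2.28 to 3.69), where 6.57% of features were higher and 18.8% past 1.5-fold either way. Type 17 cells, the sub-cluster with the most S100a4, made up 8 of the 36 IL-22-positive and 45 of the 2413 IL-22-negative cells. Weighted to the same sub-clusters the ratio was 1.24, and it was 0.974 when cells were placed by marker UMIs. Anxa2 in the same cells had 283 CPM in IL-22-positive and 163 CPM in IL-22-negative cells (1.73, 1.18 to 2.46), with a ratio of 1.66 with the sub-clusters matched and 1.38 when cells were placed by marker UMIs.

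In monocyte-like cells at 0 h Anxa2 was already lower in the IL-22-positive fraction, at 900.4 CPM against 1466 CPM in IL-22-negative cells (0.614, 0.550 to 0.686), but 0.741 with sub-clusters matched. Anxa6 had 53.8 CPM in IL-22-positive and 81.1 CPM in IL-22-negative cells (0.664, 0.407 to 1.06), beside 13.8% of features lower and 32.2% either way. That Anxa6 ratio kept its side of the limit in 4 of 11 other settings and was 0.769 with sub-clusters matched. T-cell markers summed to 3.59 CPM in IL-22-positive and 174 CPM in IL-22-negative monocyte-like cells and B-cell markers to 89.7 and 302 CPM, and their part was not tested. Anxa1 (185 and 193 CPM) and Anxa5 (373 and 384 CPM), both lower in the IL-22-positive fraction at 12 h, were not past 1.5-fold at 0 h. In B-cell-like cells 30 IL-22-positive cells held 4 UMIs of S100a6, or 62.3 CPM against 207 CPM in IL-22-negative cells (0.301, 0.0817 to 0.773), with 17.9% of features lower and 23.8% either way.

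The rest of both families was measured in fewer cells. Of 11 other S100 genes, 3 were measured over time in IL-22-negative monocyte-like cells and 2 were past 1.5-fold higher. In these cells 12.2% of all measured features were past 1.5-fold higher and 21.7% past 1.5-fold either way. S100a8 had the highest ratio, 257, and S100a1 the lowest, 0.933 (63.6 CPM at 12 h and 68.1 CPM at 0 h). Of 8 other annexins, 4 were measured there and none was past 1.5-fold, between 1.14 for Anxa11 and 0.753 for Anxa4. Of 14 partner genes, which include receptors and binding proteins of the families, 7 were measured and 1 was past 1.5-fold higher, against 12.2% of all features: Pla2g4a, a phospholipase whose activity annexins are known to restrain, at 37.3 CPM at 12 h and 17.8 CPM at 0 h (2.09). None of the 16 genes of a list of motility and cytoskeleton genes was past 1.5-fold, the highest being Lgals1 (732 and 498 CPM, 1.47) and the lowest Capg (466 and 652 CPM, 0.714).

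In T-cell-like cells of the IL-22-negative fraction, none of 16 motility genes and none of 7 genes of naive T cells was past 1.5-fold over time. The background there was 9.84% of all measured features. The lowest of the naive genes was Ccr7, the homing receptor, at 50.6 CPM at 12 h and 68.9 CPM at 0 h (0.734). In cDC-like cells, whose make-up differed between the times, 2 of 6 measured partner genes and 2 of 16 motility genes were past 1.5-fold lower at 12 h, beside 9.57% of all features. The lowest partner gene was Ahnak, for the large protein that the S100a10 and Anxa2 complex binds, at 329 CPM at 12 h and 525 CPM at 0 h (0.627), and the lowest motility gene was Capg, at 72.4 and 220.3 CPM (0.329). Between the sort fractions at 12 h, 4 of 16 motility genes were past 1.5-fold lower in IL-22-positive monocyte-like cells, beside 15.1% of all features. All 4 (Tagln2, Coro1a, Arpc1b and Vim) were among the 95 features lower in all 3 classes of that library. Of 12 partner genes 1 was higher, beside 10.1% of all features: the Anxa1 receptor gene Fpr2, at 34.1 CPM in IL-22-positive and 14.2 CPM in IL-22-negative cells (2.40).

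Over 18 sums of library and class, the levels of some members ran closely together on the log2(CPM + 10) scale. Pearson's r was 0.92 for S100a11 with Anxa1, its known partner, 0.89 for S100a6 with Anxa1 and 0.88 for S100a6 with S100a11. It was 0.30 for S100a10 with Anxa2, which form a known complex, and -0.06 for S100a10 with Anxa5. These sums share libraries and depths, so the values are a description only. Among 2554 other features, those most like each gene were Zyx for S100a6 (r = 0.95), H2afz for S100a4 (0.91), Tmsb10 for S100a10 (0.84), Adam8 for S100a11 (0.91) and Abracl for S100a13 (0.84). For the annexins they were Ifitm6 for Anxa1 (0.94), Ube2l3 for Anxa2 (0.84), Cd300a for Anxa5 (0.96) and Klrk1 for Anxa6 (0.91).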

How the data were processed

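The 4 deposited matrices hold whole-number UMI counts per feature and barcode, made by the authors with Cell Ranger. Per the file headers its version was 4.0.0, whereas the submitters' processing notes give 3.0.1 and the mm10 genome. Per the labels' protocols the libraries were Single Cell 3' v2. Their totals ran between 1148221 and 29859062 UMIs.

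Kept barcodes had 200 or more detected genes and less than 10% of their UMIs from mitochondrial genes (Scanpy 1.11.5, Python 3.11.15). Doublets were called with Scrublet run through Scanpy. In the 12 h IL-22-negative library its own threshold marked 1 of 10231 barcodes, so the threshold of the 0 h library of that fraction was used, which removed 607. Filtering cost the IL-22-positive and IL-22-negative fraction 28 and 132 barcodes at 12 h, and 11 and 254 at 0 h. Doublet calls removed 5 and 607 barcodes at 12 h, and 6 and 373 at 0 h.

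Clusters came from 2000 variable genes without S100, annexin, antigen receptor and Il22 features, with 30 principal components, 15 neighbours and Leiden resolution 1 (leidenalg 0.10.2). Lymphocyte and myeloid clusters were clustered again. Names rest on marker lists, and the naming rule and sub-cluster names were settled after the clusters were seen. The 3 clusters with few UMIs, together 560 cells at 12 h and 1851 at 0 h of the IL-22-negative libraries, stayed unnamed; their markers were nearest to T, B and conventional dendritic cells.

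UMIs were summed per library and class with at least 30 cells. CPM intervals are exact Poisson, ratio intervals exact conditional (Clopper-Pearson) and share intervals exact binomial, all for counting error only. The background is the percent of all measured features past 1.5-fold in the same cells. With 1 library per group no test was run. All 9 members are reported. From each fixed list the genes with the highest and lowest ratio are named, and for each member the feature with the highest correlation. The members were chosen by symbol and not by a measured value. They and the lists were chosen with earlier results of these data known. Gene positions are from GENCODE vM21 and promoter windows from RefSeq.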

Additional observations from a re-analysis of the deposited data

Results flagged for a closer look

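Results for 2 genes went opposite ways in 2 classes under the same comparison. S100a4 at 12 h over 0 h in the IL-22-positive libraries had a ratio of 2.71 in macrophage-like cells and 0.499 in T-cell-like cells. Both turned under other settings. The macrophage-like ratio was 0.400 at Leiden resolution 2 and 0.325 without doublet removal, and the T-cell-like ratio was 2.75 with matched sub-clusters. Anxa2 in the IL-22-positive over the IL-22-negative library at 0 h had a ratio of 1.73 in T-cell-like cells and 0.614 in monocyte-like cells. The T-cell-like ratio was 1.38 with cells placed by marker UMIs and the monocyte-like ratio 0.741 with matched sub-clusters, neither past 1.5-fold. Neither difference between classes was tested, since each group is 1 library.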

How the results depend on the processing

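Of 30 pairs of gene and class past 1.5-fold, 14 kept their side of the limit under each of up to 11 other settings and 16 lost it under at least 1. Those that kept it include S100a11 in monocyte-like cells over time (1.94 to 2.53 in the IL-22-negative and 1.88 to 2.88 in the IL-22-positive fraction), S100a6 in B-cell-like cells over time (1.91 to 2.94) and Anxa2 in monocyte-like cells between the sort fractions at 12 h (0.290 to 0.351). For S100a11, matched sub-clusters covered only 37.5% of the 12 h UMIs in the IL-22-negative and 48.1% in the IL-22-positive fraction. They left out the Lrg1 and Chil3 sub-cluster, which had 1 and 2 such cells at 0 h. With cells placed by their marker UMIs alone, the count over time in the IL-22-negative fraction was 5 (8 in the report) and the count between the sort fractions at 0 h was 3 (5 in the report). That last count was 9 with at least 1 predicted UMI and 2 with matched sub-clusters (4 in the same classes). Ratios that turned with marker placement were S100a4 in pDC-like cells over time (1.17), S100a13 in macrophage-like cells over time (1.02), S100a4 in T-cell-like cells between fractions at 0 h (0.974) and Anxa5 in cDC-like cells between fractions at 12 h (1.18). Without doublet removal S100a4 over time turned to 1.11 in pDC-like and 0.325 in macrophage-like cells, and to 0.400 in the macrophage-like cells at Leiden resolution 2. Matched sub-clusters turned S100a4 over time in T-cell-like cells of the IL-22-positive fraction to 2.75. The cause of these was not tested. The median share of cells with a UMI of a member was 41.2%, and 17.5% with each cell thinned to 1000 UMIs. Matched sub-clusters, the setting without sub-clusters that hold markers of another class, and the B-cell limit of 5 UMIs were chosen after seeing the data. No paired analysis was possible because each group is 1 library. Classes of 30 to 50 cells hold few UMIs, and differences there within the counting intervals were not detectable at this depth.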
